A study of Mus musculus with 12 samples.

Results

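The RUNX and ETS family factors described here are 10 genes, chosen by name from the 24439 genes listed for each library. They are Runx1, Runx2 and Runx3, their partner Cbfb, and 6 genes of the ETS family, Ets1, Ets2, Fli1, Elf1, Gabpa and Etv6. All 10 passed the filter on low values (over 1 TPM in at least 1 library), as did 12442 genes in all.

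RUNX proteins bind DNA through a Runt domain and do so more tightly when paired with CBFβ, the product of Cbfb, which itself does not contact DNA. ETS proteins share a winged-helix domain that binds sites around a GGAA core, often beside RUNX or AP-1 sites. In T cells both families bind many regulatory elements that are open before and after activation, and they act as activators or repressors depending on their partners.

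RNA-Seq was done on T blast cells (TB), grown from CD4 T cells of the spleen of C57BL/6 C42 mice, transgenic mice with human DNA that spans IL3 and CSF2. The cells of all 4 groups were activated with 2 μg/ml of the lectin concanavalin A for 40 h and then grown in 50 U/ml IL-2. TB IL-2 cells stayed in IL-2, and TB IL-2nil cells spent a further 16 h without it. TB+ IL-2 and TB+ IL-2nil cells were the same 2 cultures after restimulation for 2 h with PMA and calcium ionophore (PMA/I). These agents bypass the T cell receptor. Cells not restimulated are called resting below, although the study describes TB cells in IL-2 as dividing. Each group holds 3 libraries, and the labels do not say whether they came from separate animals, so P-values measure the spread between these libraries. The main fits do not pair libraries by replicate number, although libraries of the same number deviated together, as described under processing.

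The libraries labelled TB IL-2nil replicate 3 and TB+ IL-2 replicate 3 go against their labels. Il2, a gene induced by PMA/I, stood at 1368 FPKM (fragments scaled for transcript length and library size) in the first and at 0.290 FPKM in the second. Table EV2 of the study lists the values of each in the column of the other, and here both are placed as in that table, so that TB IL-2nil replicate 3 below is the library labelled TB+ IL-2 replicate 3 and the reverse. Each comparison is also given with the 2 libraries placed by their labels and without both. Relative depth, read from the steps between low values with the median library at 1, ranged from 0.409 to 1.25, lowest in TB IL-2nil replicate 2.

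Summed over 5 markers of CD4 T cells (Cd3d, Cd3e, Cd3g, Cd4 and Lck), levels were 1977 to 2167 TPM (transcripts per 1000000, corrected for transcript length) in TB IL-2nil, 1359 to 1379 TPM in TB IL-2, 1620 to 1829 TPM in TB+ IL-2nil and 1194 to 1346 TPM in TB+ IL-2. Levels below are TPM scaled to a common upper quartile. The 2 CD8 T cell markers summed to 6.91 to 31.9 TPM, and the 3 NK cell markers to at most 0.303 TPM, with Ncr1 listed at 0 in all 12 libraries. The 3 B cell markers (Cd79a, Cd79b and Ms4a1) summed to 20.4 to 26.6 TPM in TB IL-2nil, 5.05 to 9.74 TPM in TB IL-2, 4.74 to 12.1 TPM in TB+ IL-2nil and 2.09 to 2.81 TPM in TB+ IL-2. The CD4 T cell and B cell markers were thus both highest, with no overlap, in the group in which Ets1, Fli1 and Elf1 were also highest, and their part in those results was not tested. These are bulk samples, in which fewer cells of a type and less RNA per cell cannot be told apart.

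The 3 RUNX genes are each transcribed from an upstream and a downstream promoter in vertebrates. Their upstream windows are shown because they share a sequence feature, a pair of RUNX sites (ACCACA, or TGTGGT on the other strand) that start 8 bases apart. The windows hold 250 bases before and 50 after the start of a RefSeq transcript in GRCm38.p6, written 5′ to 3′ on the strand of the gene, with every searched motif in capitals.
Runx1, minus strand of chr16:92826025-92826324: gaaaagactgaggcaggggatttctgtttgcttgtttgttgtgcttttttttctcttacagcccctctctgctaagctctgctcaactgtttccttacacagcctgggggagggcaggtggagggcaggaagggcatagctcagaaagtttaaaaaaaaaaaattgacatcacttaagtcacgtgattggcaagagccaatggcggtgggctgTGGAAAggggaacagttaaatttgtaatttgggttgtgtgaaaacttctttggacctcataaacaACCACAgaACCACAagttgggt
Runx2, minus strand of chr17:44814578-44814877: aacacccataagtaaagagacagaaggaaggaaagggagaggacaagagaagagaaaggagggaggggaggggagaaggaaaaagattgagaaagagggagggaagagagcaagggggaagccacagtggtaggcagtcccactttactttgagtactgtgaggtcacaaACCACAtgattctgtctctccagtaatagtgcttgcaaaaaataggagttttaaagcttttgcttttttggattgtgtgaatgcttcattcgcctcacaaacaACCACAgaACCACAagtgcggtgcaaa
Runx3, plus strand of chr4:135120395-135120694: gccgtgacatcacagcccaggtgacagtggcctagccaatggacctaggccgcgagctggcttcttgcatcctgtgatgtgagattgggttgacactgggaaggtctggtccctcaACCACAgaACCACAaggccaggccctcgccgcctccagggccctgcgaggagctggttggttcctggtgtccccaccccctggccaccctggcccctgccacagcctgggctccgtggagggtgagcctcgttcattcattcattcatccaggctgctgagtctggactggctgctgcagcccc
The pair lies after the transcript start in Runx1 and Runx2, and before it in Runx3. The remaining capitals are a single RUNX site in Runx2 and an NFAT core (TGGAAA) in Runx1. Counted on both strands, the pair ACCACANNACCACA was in 7 of 32817 windows of all promoters (0.0213%), namely those of Runx1, Runx2 and Runx3, that of Gm16225, which overlaps the Runx3 window on the other strand, and those of Gm12236, Gm15462 and Olfr24. The pair was looked for after the single sites had been seen.

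Windows were found for 8 of the 10 genes (11 windows), without Ets1 and Fli1. The single RUNX site TGTGGT was in 3 of the 11, against 16.8% of all windows. The NFAT core was in 3 (Runx1 in both windows and Elf1), against 21.4%, the AP-1 site TGANTCA in 1 (Elf1), against 7.81%, and the STAT site TTCNNNGAA in 1 (Etv6), against 8.29%. The ETS site CCGGAAGT, found in 3.89% of all windows, the CRE site TGACGTCA, in 1.79%, the EGR site GCGTGGGCG, in 0.612%, the CArG box, in 1.63%, and the κB site, in 8.46%, were in none of the 11. In these windows only the RUNX site and the pair share bases, and a match is a description of these letters alone.

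**Figure D1:**
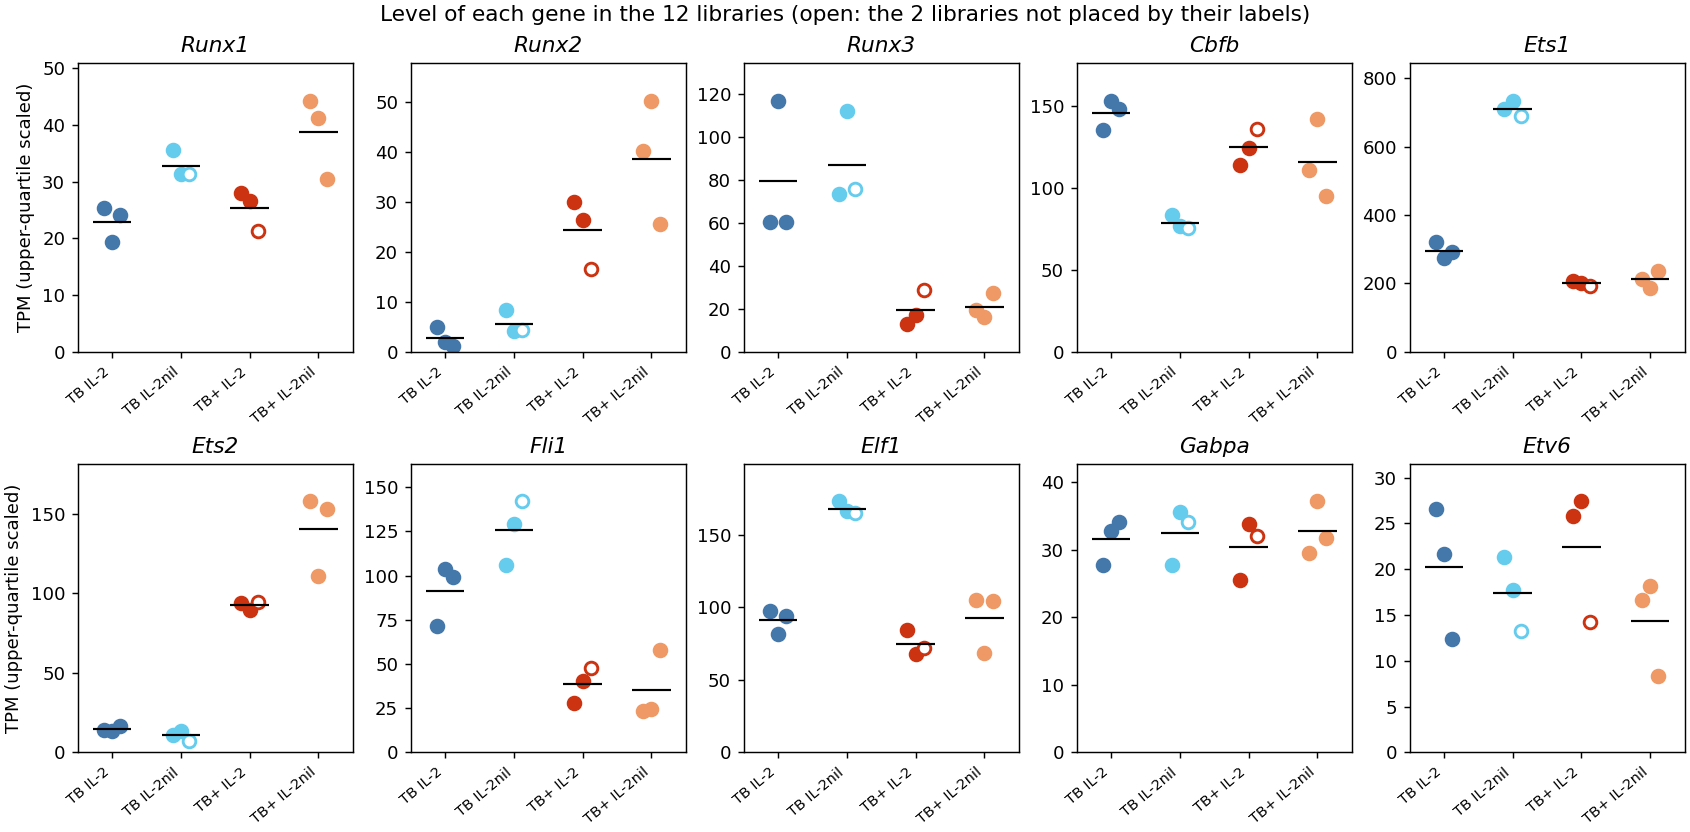
Level of each of the 10 genes in the 12 libraries (TPM scaled to a common upper quartile, linear axes from 0, 1 panel for each gene). Points are libraries in the order of their replicate number, bars are means of 3, and open points are the 2 libraries placed against their labels. Runx2 and Ets2 were higher and Runx3, Ets1 and Fli1 lower in every TB+ library than in every TB library.

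Within the RUNX genes, restimulation moved Runx2 and Runx3 in opposite directions, whether IL-2 had been kept or not. Runx2, best known as the bone-forming member of the family, read 4.88, 2.01 and 1.14 TPM in TB IL-2, 8.41, 4.15 and 4.31 TPM in TB IL-2nil, 30.0, 26.3 and 16.5 TPM in TB+ IL-2, and 40.2, 50.2 and 25.5 TPM in TB+ IL-2nil. Every TB+ library was above every TB library, while the groups with and without IL-2 overlapped at both stages, although within each replicate number the library without IL-2 was the higher one. Runx2 rose with PMA/I by a log2 difference of 2.87 (SE 0.40, adjusted P = 0.00036) in IL-2 and 2.59 (SE 0.40, adjusted P = 0.000218) without it. The difference of IL-2 against IL-2nil was -0.92 in TB (adjusted P = 0.0867, and 0.0116 with the replicate number as a block) and -0.64 in TB+ (adjusted P = 0.278, and 0.0711 with the block). Leaving out TB IL-2 replicate 1 gave -1.33 (adjusted P = 0.0186) in TB. Log2 differences are on the log2(TPM + 1) scale, which understates changes of weakly expressed genes, and adjusted P-values are from limma with Benjamini-Hochberg adjustment over all 12442 genes.

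Runx3, which silences Cd4 in CD8 T cells and takes part in Th1 differentiation, read 60.5, 117 and 60.7 TPM in TB IL-2 and 73.6, 112 and 75.8 TPM in TB IL-2nil. After PMA/I it read 13.1, 17.3 and 28.6 TPM in TB+ IL-2 and 19.3, 16.2 and 27.5 TPM in TB+ IL-2nil. Both TB groups lay wholly above both TB+ groups, and replicate 2 was the highest library in each TB group. The log2 difference with PMA/I was -1.96 (SE 0.34, adjusted P = 0.00134) in IL-2 and -2.01 (SE 0.34, adjusted P = 0.000396) without it. The 2 CD8 T cell markers summed to 31.9, 6.91 and 7.18 TPM in TB IL-2, 22.1, 14 and 17.7 TPM in TB IL-2nil, 29.5, 7.27 and 9.14 TPM in TB+ IL-2, and 22, 8.64 and 15.5 TPM in TB+ IL-2nil. Replicate 2 was their lowest library in every group, and their TB and TB+ libraries overlapped.

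Runx1, required for T cell development in the thymus, was the one of the 3 that passed the test for IL-2 and not for PMA/I. It read 25.3, 19.3 and 24.2 TPM in TB IL-2, 35.6, 31.4 and 31.3 TPM in TB IL-2nil, 28.0, 26.6 and 21.4 TPM in TB+ IL-2, and 44.3, 41.3 and 30.5 TPM in TB+ IL-2nil. At each stage all libraries without IL-2 were above all libraries with it. The log2 difference of IL-2 against IL-2nil was -0.50 (SE 0.18, adjusted P = 0.0469) in TB and -0.58 (SE 0.18, adjusted P = 0.0428) in TB+. Both calls were close to the threshold: each held in 6 of 16 other fits, with adjusted P from 0.0204 to 0.192 in TB and from 0.0167 to 0.79 in TB+, and neither held without the 2 doubtful libraries (adjusted P = 0.0764 and 0.183). The IL-2 differences of Runx2 (-0.92 in TB and -0.64 in TB+) had the same sign and were larger, and the genes were not compared. With PMA/I the differences of Runx1 were 0.14 (95% confidence interval -0.26 to 0.54, adjusted P = 0.582) in IL-2 and 0.22 (-0.18 to 0.62, adjusted P = 0.314) without it. All of these are RNA levels, and by Western blot of TB IL-2 and TB IL-2nil cells the study reports no change of RUNX1 protein with IL-2.

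Cbfb was lowest in resting cells without IL-2. It read 135, 153 and 148 TPM in TB IL-2, 83.3, 76.7 and 75.2 TPM in TB IL-2nil, 114, 124 and 136 TPM in TB+ IL-2, and 111, 142 and 94.8 TPM in TB+ IL-2nil. All 3 TB IL-2nil libraries were below the other 9, which overlapped between neighboring groups. The log2 difference of TB IL-2 against TB IL-2nil was 0.88 (SE 0.16, adjusted P = 0.00195). With PMA/I after IL-2 withdrawal Cbfb rose by 0.54 (SE 0.16, adjusted P = 0.0137), a difference of -0.01 without upper-quartile scaling, under which the median of all genes in this comparison moved from -0.38 to -0.775. That call was also lost with quantile normalization (0.22, adjusted P = 0.277), without both doubtful libraries (0.51, adjusted P = 0.0502) and without TB+ IL-2nil replicate 2 (0.39, adjusted P = 0.0501). In IL-2 the Cbfb difference with PMA/I was -0.22 (adjusted P = 0.321), and IL-2 against IL-2nil in TB+ was 0.12 (adjusted P = 0.639). The difference between the 2 responses to PMA/I was -0.76 (95% confidence interval -1.27 to -0.25, adjusted P = 0.0866), which did not pass the test.

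The makeup of the RUNX transcripts is given as a description, with no test. Of the summed TPM of the 3 genes, Runx3 held 74.0 ± 9.41% (SD, n = 3) in TB IL-2 and 68.9 ± 6.76% in TB IL-2nil, but 28.7 ± 12.8% in TB+ IL-2 and 22.2 ± 9.48% in TB+ IL-2nil. Runx2 held 2.72 ± 2.3% and 4.61 ± 2.26% before PMA/I, and 34.8 ± 8.96% and 38.6 ± 8.05% after it. The sum itself was 105 ± 29.1 TPM in TB IL-2, 126 ± 19.5 TPM in TB IL-2nil, 69.3 ± 2.43 TPM in TB+ IL-2 and 98.3 ± 13 TPM in TB+ IL-2nil. Restimulated cells thus held the 3 genes at more even shares than resting cells, in which Runx3 made up most of the sum. Cbfb stood at 1.44 ± 0.311 times the RUNX sum in TB IL-2 and 0.634 ± 0.101 times in TB IL-2nil, with 1.81 ± 0.219 and 1.17 ± 0.125 times after PMA/I.

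**Figure D2:**
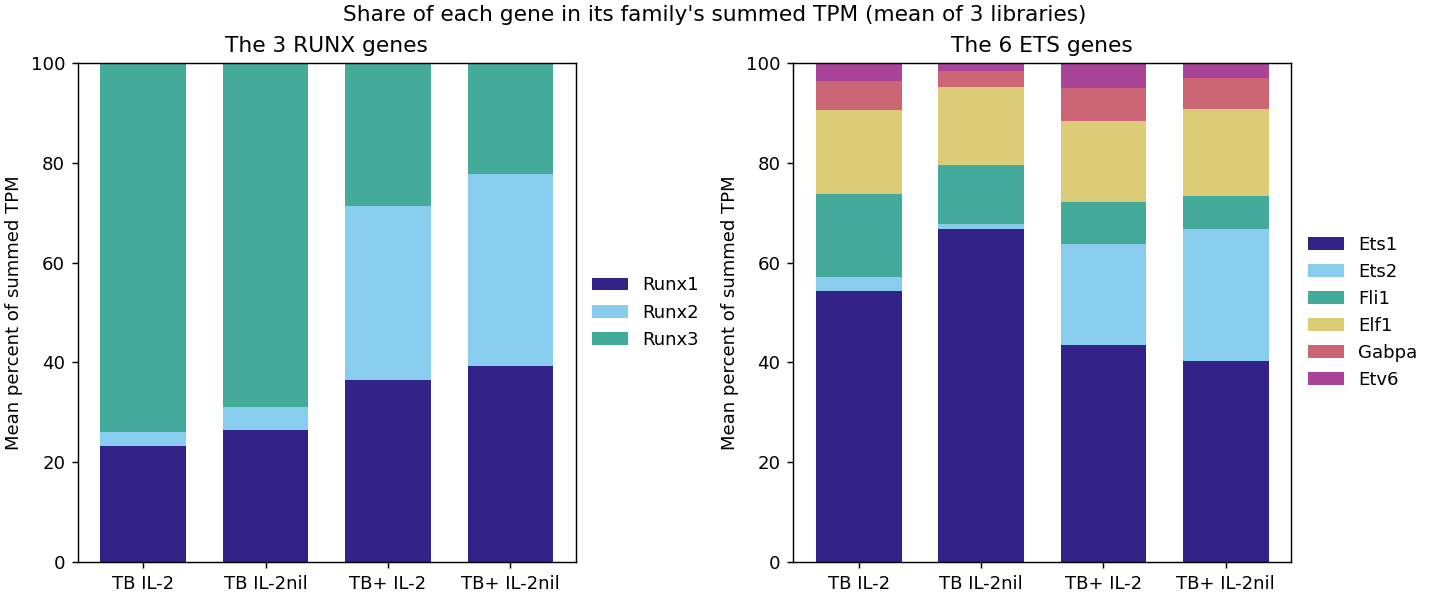
Mean share (percent, 3 libraries per group) of each gene in the summed TPM of the 3 RUNX genes (left) and of the 6 ETS genes (right), by group. Runx3 falls from 74.0% in TB IL-2 to 28.7% in TB+ IL-2 while Runx2 goes from 2.72% to 34.8%, and Ets2 goes from 2.74% to 20.2%.

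Ets1, a lymphoid ETS factor needed for normal T cell survival and cytokine expression, was the most highly expressed of the 10 genes in all 4 groups. It read 321, 275 and 292 TPM in TB IL-2 and 709, 734 and 689.5 TPM in TB IL-2nil, where 1.2% of all tested genes had a higher mean. After PMA/I it read 207, 200.2 and 192 TPM in TB+ IL-2 and 212, 186 and 236 TPM in TB+ IL-2nil. TB IL-2nil stood above all other libraries and TB IL-2 above both TB+ groups, which overlapped each other.

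Ets1 differed with IL-2 before restimulation, and after it the difference did not pass the test. The log2 difference of IL-2 against IL-2nil was -1.26 (SE 0.14, adjusted P = 0.000121) in TB and -0.07 (95% confidence interval -0.38 to 0.23, adjusted P = 0.74) in TB+. These are RNA levels. By Western blot of TB IL-2 and TB IL-2nil cells, the study reports no change of ETS1 protein with IL-2. With PMA/I, Ets1 changed by -0.56 (SE 0.14, adjusted P = 0.00879) in IL-2 and by -1.75 (SE 0.14, adjusted P = 3.09e-06) without it. The difference between these 2 responses, or interaction, was 1.19 (SE 0.19, 95% confidence interval 0.76 to 1.61, adjusted P = 0.0145). It was 1.24 (adjusted P = 0.0772) without the 2 doubtful libraries and 1.66 (adjusted P = 0.153) without upper-quartile scaling. Placed by their labels these libraries enter the interaction with the same sign, so it stayed at 1.19 but with an adjusted P = 0.914.

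Fli1, the neighbor of Ets1 on chromosome 9 and a regulator of hematopoietic cells, was lower after PMA/I in both media. It read 71.2, 104 and 99.4 TPM in TB IL-2, 106, 129 and 142 TPM in TB IL-2nil, 27.7, 40.4 and 48.0 TPM in TB+ IL-2, and 23.2, 24.5 and 57.8 TPM in TB+ IL-2nil. The TB and TB+ libraries did not overlap, and the highest TB+ value was that of TB+ IL-2nil replicate 3. The log2 difference with PMA/I was -1.24 (SE 0.33, adjusted P = 0.0143) in IL-2 and -1.92 (SE 0.33, adjusted P = 0.000459) without it. The first call was lost without TB+ IL-2 replicate 1, at -1.02 (adjusted P = 0.0609). With IL-2 against IL-2nil the difference in TB was -0.46 (95% confidence interval -1.19 to 0.26, adjusted P = 0.286), although the 2 groups of libraries did not overlap.

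Elf1, which binds enhancers of Il2ra and other T cell genes, followed Ets1 in resting cells. It read 97.1, 81.3 and 94.3 TPM in TB IL-2, 173, 166 and 165 TPM in TB IL-2nil, 84.0, 67.7 and 71.6 TPM in TB+ IL-2, and 105, 68.2 and 104 TPM in TB+ IL-2nil. The 3 TB IL-2nil libraries stood above the other 9, among which neighboring groups overlapped. The log2 difference of TB IL-2 against TB IL-2nil was -0.88 (SE 0.18, adjusted P = 0.0035), and that of PMA/I without IL-2 was -0.88 (SE 0.18, adjusted P = 0.00152). With IL-2 kept, the difference with PMA/I was -0.29 (95% confidence interval -0.69 to 0.11, adjusted P = 0.246). The interaction was 0.60 (adjusted P = 0.196).

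Ets2, a target of Ras and MAP kinase signaling, was the ETS member that rose with PMA/I. It read 14.3, 13.7 and 16.8 TPM in TB IL-2, 11.2, 13.3 and 7.39 TPM in TB IL-2nil, 94.1, 89.4 and 94.7 TPM in TB+ IL-2, and 158, 111 and 153 TPM in TB+ IL-2nil. No neighboring groups overlapped, with TB+ IL-2nil highest and TB IL-2nil lowest. Ets2 rose with PMA/I by a log2 difference of 2.56 (SE 0.21, adjusted P = 1.05e-05), or 5.89-fold, in IL-2 and by 3.63 (SE 0.21, adjusted P = 4.98e-07), or 12.3-fold, without it. The IL-2 differences were 0.49 in TB (adjusted P = 0.0871) and -0.58 in TB+ (adjusted P = 0.0726), and their interaction was -1.07 (95% confidence interval -1.72 to -0.41, adjusted P = 0.0688), so none of these passed the test over all genes. Leaving out TB IL-2nil replicate 2 gave 0.65 (adjusted P = 0.0424) in TB, and leaving out TB+ IL-2nil replicate 2 gave -0.74 (adjusted P = 0.0357) in TB+.

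Gabpa, whose product pairs with GABPβ to control many housekeeping and mitochondrial genes, had group means between 30.5 and 32.8 TPM. Its lowest library read 25.6 TPM (TB+ IL-2 replicate 1) and its highest 37.2 TPM (TB+ IL-2nil replicate 2), and all groups overlapped. The 4 log2 differences between groups lay between -0.11 and 0.02, with 95% confidence intervals reaching from -0.48 at the lowest to 0.39 at the highest. Gabpa overlaps Atp5j on the other strand by 701 bases at their starts, and whether strand was used in quantification is not given in the sources used here. Atp5j, which encodes a subunit of ATP synthase, ranged from 11.6 to 143 FPKM.

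Etv6, an ETS repressor needed for blood formation, was spread as widely between replicates as between groups. It read 26.6, 21.6 and 12.4 TPM in TB IL-2, 21.3, 17.7 and 13.2 TPM in TB IL-2nil, 25.8, 27.4 and 14.2 TPM in TB+ IL-2, and 16.6, 18.2 and 8.31 TPM in TB+ IL-2nil. Replicate 3 was the lowest library of every group, and all neighboring groups overlapped. The 4 log2 differences ranged from -0.30 to 0.63, with adjusted P from 0.241 to 0.767. With the replicate number as a block, the difference of 0.63 between TB+ IL-2 and TB+ IL-2nil had an adjusted P = 0.0109.

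**Figure D3:**
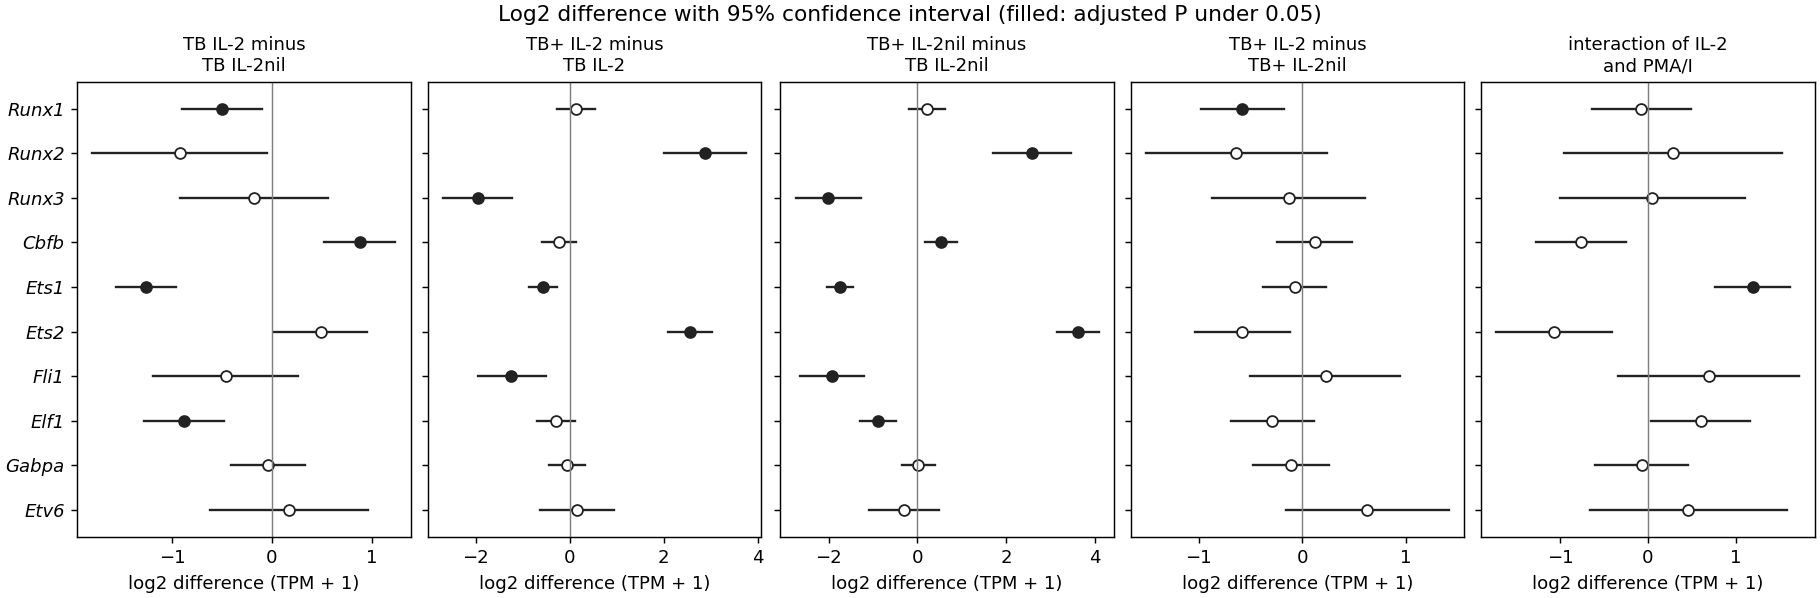
Log2 difference of each of the 10 genes in the 4 comparisons and the interaction (x axis, log2(TPM + 1) scale), with 95% confidence intervals from limma and filled points at an adjusted P under 0.05. With PMA/I, Runx2 (2.87 and 2.59) and Ets2 (2.56 and 3.63) lie farthest to the right, and Gabpa is within 0.11 of 0 in all 5 panels.

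Counted over the 10 genes, 4 passed the test for IL-2 in resting cells, with Cbfb higher and Runx1, Ets1 and Elf1 lower in IL-2. Among all 12442 genes 39.6% passed (17.3% higher and 22.3% lower in IL-2), so a share of 4 in 10 was near that of all genes, and no member was over 3-fold (7.42% of all genes were, with the same threshold on P). The median log2 difference of the members was -0.32, against -0.13 over all genes. Without the 2 doubtful libraries 3 members passed (32.1% of all genes). By the labels none did (0.121% of all genes, with 1434 genes at an unadjusted P under 0.05). With the replicate number as a block, Runx2 passed as well, in a fit for which the share of all genes was not counted.

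With PMA/I in IL-2, 5 members passed, with Runx2 and Ets2 higher and Runx3, Ets1 and Fli1 lower (35.1% of all genes passed, 11.8% higher and 23.3% lower). Of these Runx2, Runx3 and Ets2 were also over 3-fold, against 7.04% of all genes. After IL-2 withdrawal 7 passed, the same 5 with Cbfb higher and Elf1 lower (61.2% of all genes, 20.1% higher and 41.1% lower), and Runx2, Runx3, Ets1, Ets2 and Fli1 were over 3-fold, against 18.5%. The medians of the members were -0.14 in both, against -0.22 and -0.38 over all genes. These 2 comparisons share no library with each other, but each shares a group with the IL-2 comparisons. Without the 2 doubtful libraries 5 and 6 members passed (30.7% and 53.4% of all genes), and by the labels none (0.498% and 5.38% of all genes, with 1739 and 4017 at an unadjusted P under 0.05).

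In restimulated cells Runx1 alone passed for IL-2, lower in IL-2 (21.3% of all genes passed, 12.9% higher and 8.4% lower). In the interaction Ets1 alone passed, with a positive value (4.23% of all genes passed, 1.57% positive and 2.66% negative). No member was over 3-fold in either (3.62% and 1.78% of all genes were, with the threshold on P). The medians of the members were -0.12 and 0.17, against -0.04 and 0.16 over all genes. No member passed either test without the 2 doubtful libraries (9.62% and 0.0321% of all genes passed, with 3381 genes at an unadjusted P under 0.05 in the former) or by the labels (0.217% and 0% of all genes, with 2178 and 413 genes at an unadjusted P under 0.05).

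**Figure D4:**
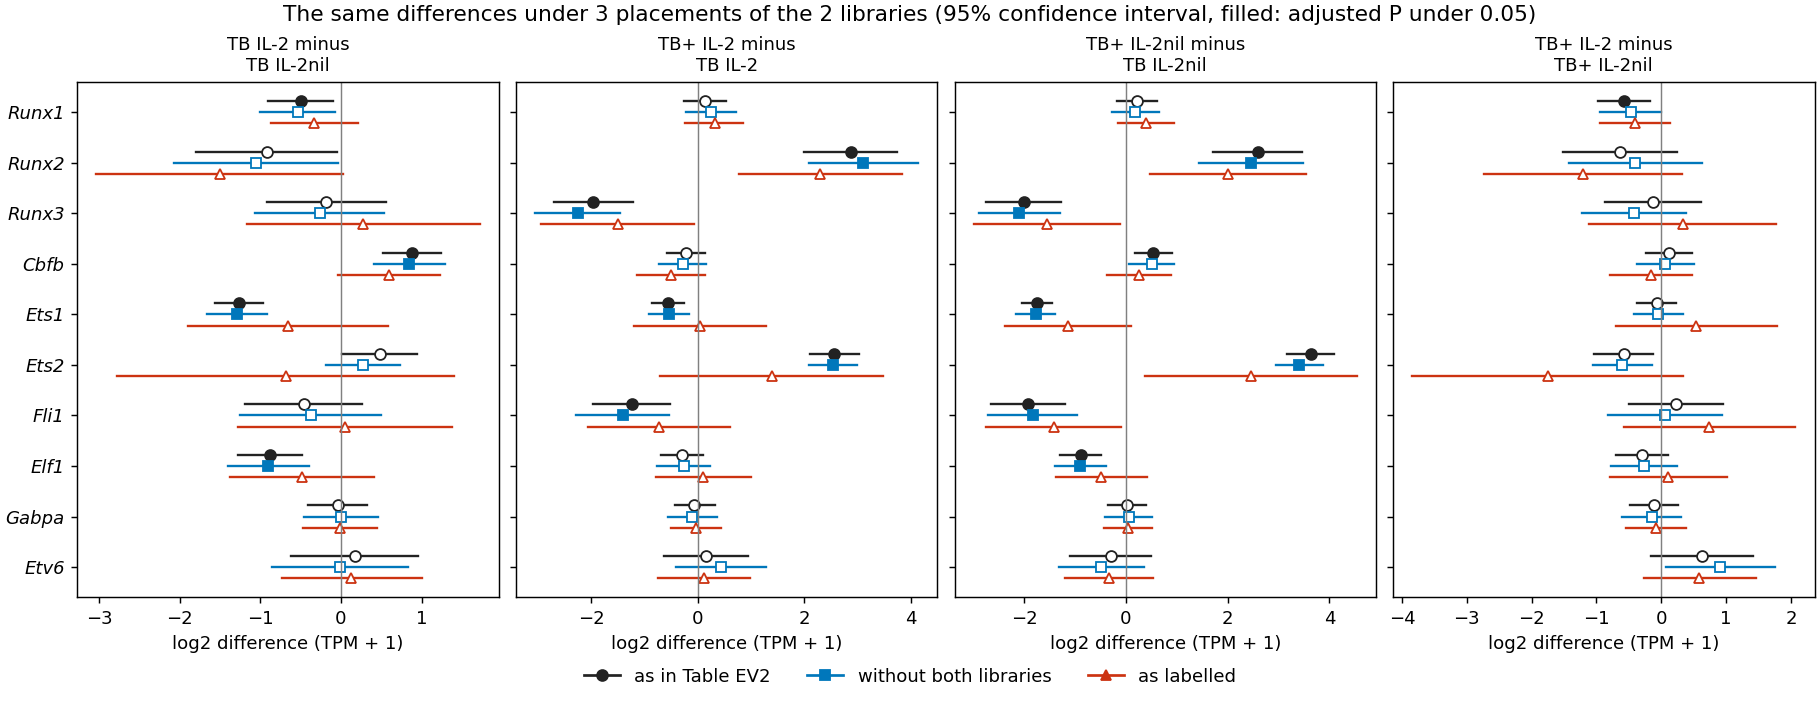
The differences of the 4 comparisons (x axis, log2(TPM + 1) scale, 95% confidence intervals) with the 2 doubtful libraries placed as in Table EV2, left out, or placed by their labels; filled symbols have an adjusted P under 0.05. Leaving them out keeps Runx2 between 2.46 and 3.11 with PMA/I, and the labels widen the intervals so that no member passes.

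The 6 ETS members summed to 545 ± 15.4 TPM (SD, n = 3) in TB IL-2, 1065 ± 26.1 TPM in TB IL-2nil, 458 ± 5.56 TPM in TB+ IL-2 and 527 ± 74.9 TPM in TB+ IL-2nil, as a description. Ets1 held 54.3 ± 2.88% of the sum in TB IL-2, 66.7 ± 1.03% in TB IL-2nil, 43.5 ± 1.07% in TB+ IL-2 and 40.2 ± 1.47% in TB+ IL-2nil. Ets2 held 2.74 ± 0.278% and 0.994 ± 0.263% before PMA/I, and 20.2 ± 0.722% and 26.6 ± 2.17% after it. Within the sum of these 6 genes, restimulated cells thus had a smaller share of Ets1 and a larger share of Ets2. Elf1 held mean shares of 15.8% to 17.4% in all 4 groups. The sum leaves out other ETS genes, such as Elk4 at 218 ± 38.4 TPM in TB+ IL-2nil.

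Of 20 other ETS family genes, 10 passed the filter. With PMA/I, Erf, a repressor controlled by ERK, rose from 9.01 ± 2.97 to 31.6 ± 8.70 TPM in IL-2 (log2 difference 1.71, adjusted P = 0.00055) and from 6.50 ± 0.189 to 35.6 ± 9.03 TPM without it (2.26, adjusted P = 2.73e-05). Elf4, a regulator of quiescence in CD8 T cells, fell in both, by log2 differences of -1.13 (adjusted P = 0.00458) and -1.05 (adjusted P = 0.00312), and so did Elf2 (-0.83 and -0.58) and Spib (-0.69 and -1.03, at no more than 2.02 TPM in any library). In IL-2 the counts were 1 higher, 3 lower and 6 that did not pass, where 35.1% of all genes passed. Without IL-2 they were 2 higher (Erf and Elk4), 3 lower and 5 that did not pass, where 61.2% of all genes passed. Without the 2 doubtful libraries Spib was lost in the first count, and Elf2 and Elk4 in the second (30.7% and 53.4% of all genes passed).

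For IL-2 in resting cells 4 of these 10 genes were lower in IL-2 and none higher, namely Elk3 (-1.11, adjusted P = 0.00519), Elk4 (-0.71, adjusted P = 0.00738), Spi1 and Spib, near the 39.6% of all genes that passed (22.3% lower). In restimulated cells, where 21.3% of all genes passed (8.4% lower), Elf2, Elk3 and Elk4 were lower in IL-2, Elk4 at 108 ± 16.5 TPM against 218 ± 38.4 TPM without it (-1.0, adjusted P = 0.00264). Elk3 and Elk4 are ternary complex factors, which bind beside serum response factor. Spi1 and Spib, which are B cell and myeloid factors, were at or under 2.02 TPM in every library. Their means were highest in TB IL-2nil (0.897 and 1.7 TPM), as were the B cell markers given above. A link to those markers was not tested. Without the 2 doubtful libraries Spi1 was lost at rest, and Elf2 and Elk3 after PMA/I (32.1% and 9.62% of all genes passed). None of the 10 passed in the interaction (limma, 4.23% of all genes passed). By the labels none passed in any of the 5 comparisons, where 0% to 5.38% of all genes did.

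Of 15 cofactor genes 12 passed the filter. Gabpb1, which encodes a partner of Gabpa, rose with PMA/I from 30.4 ± 0.951 to 77.4 ± 17.9 TPM in IL-2 (log2 difference 1.3, adjusted P = 0.000614) and from 30.3 ± 4.04 to 108 ± 19.8 TPM without it (1.79, adjusted P = 2.26e-05), while its relative Gabpb2 fell (-0.55, adjusted P = 0.00602, and -0.93, adjusted P = 8.44e-05). The acetyltransferase gene Ep300 fell from 47.0 ± 1.11 to 20.6 ± 1.13 TPM in IL-2 and from 68.9 ± 2.48 to 21.0 ± 4.65 TPM without it (-1.15, adjusted P = 0.000425, and -1.69, adjusted P = 1.09e-05). In the same comparisons Gabpa itself was at -0.06 and 0.02. With PMA/I in IL-2, 1 cofactor was higher, 3 were lower and 8 did not pass, and without IL-2, 4 were higher, 5 lower and 3 did not pass, against 35.1% and 61.2% of all genes that passed. When both doubtful libraries were left out, Tle1 passed as well in IL-2, and Tle3 was lost without IL-2 (30.7% and 53.4% of all genes passed).

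Among the corepressor genes of the Groucho family, Tle4 was lower in IL-2 in resting cells (19.3 ± 3.01 against 39.3 ± 3.48 TPM, -1.0, adjusted P = 0.00357) and in restimulated cells (-0.95, adjusted P = 0.00874), and Tle3 in restimulated cells (66.4 ± 12.8 against 134 ± 10.9 TPM, -1.01, adjusted P = 0.0204). Tle3 at rest (-0.60, adjusted P = 0.0935) and Tle1 at either stage (-0.23, adjusted P = 0.754, and -0.63, adjusted P = 0.41) did not pass, and Aes, a shorter relative of the Tle proteins, was higher in IL-2 in restimulated cells (0.74, adjusted P = 0.0397). Crebbp, the relative of Ep300, was lower in IL-2 at both stages (-0.91, adjusted P = 0.00191, and -0.68, adjusted P = 0.016). In all, 4 of the 12 cofactors were lower and none higher with IL-2 at rest, where 39.6% of all genes passed. After PMA/I 4 were lower and 1 (Aes) higher, where 21.3% of all genes passed. None passed in the interaction, where 4.23% of all genes did. Without the 2 doubtful libraries Tle4 and Crebbp passed at rest and none passed after PMA/I, where 32.1% and 9.62% of all genes did. By the labels the one cofactor that passed in any comparison was Hipk2, a kinase gene, with PMA/I without IL-2 (1.46, adjusted P = 0.026, against 1.22 and 0.00326 as placed here). There 5.38% of all genes passed by the labels, and 0% to 0.498% in the other comparisons.

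Of 16 T cell genes with known RUNX or ETS control elements, all passed the filter. With PMA/I in IL-2, 6 rose and 1 fell (11.8% and 23.3% of all genes did), and without IL-2, 8 rose and 3 fell (20.1% and 41.1% of all genes). The 6 that rose in IL-2 were the cytokine genes Il4, Ifng, Csf2, Il3, Il2 and Tnf. The list was picked with earlier results of these data known. Its counts here and below therefore describe the picked genes and are no test of RUNX or ETS control. The cytokine gene Csf2 rose from 3.33 ± 0.985 to 2575 ± 983 TPM in IL-2 and from 0.646 ± 0.564 to 642 ± 173 TPM without it. Zbtb7b, which encodes the CD4 lineage factor ThPOK, fell from 45.9 ± 8.75 to 7.42 ± 2.14 TPM in IL-2 (-2.49, adjusted P = 0.000109) and from 56.1 ± 4.73 to 7.40 ± 3.60 TPM without it (-2.85, adjusted P = 1.32e-05). A link of this fall to that of Runx3 was not tested.

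For IL-2 at rest, 5 of the 16 were higher in IL-2 and 3 lower, against 17.3% and 22.3% of all genes. Gzmb, a granzyme of cytotoxic cells, stood at 521 ± 115 TPM in TB IL-2 and 11 ± 8.57 TPM in TB IL-2nil (5.81, adjusted P = 7.59e-05), and Il7r, the IL-7 receptor gene, at 54.5 ± 37.0 and 588 ± 235 TPM (-3.54, adjusted P = 0.000406). In restimulated cells 3 were higher and 2 lower (12.9% and 8.4% of all genes), with Gzmb again higher in IL-2 (3.48, adjusted P = 0.00205). Il2ra alone passed in the interaction (-2.13, adjusted P = 0.0389), where 4.23% of all genes passed. Without the 2 doubtful libraries the calls of this list were the same apart from Il7r after PMA/I and Il2ra in the interaction. Both were lost, where 9.62% and 0.0321% of all genes passed. By the labels none of the 16 passed in any of the 5 comparisons, where 0% to 5.38% of all genes did.

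The genes whose log2 levels followed a member most closely over the 12 libraries, among 8797 genes with a mean of at least 5 TPM, are named for the 5 members over 3-fold in any comparison. The 12 points share their 4 groups, so a high Pearson r mainly reflects them. For Runx2 they were Reep3 (r = 0.982), Stx6 (0.98) and Ell2 (0.979), and for Ets2 Prag1 (0.992), Atf3 (0.991) and Nr4a1 (0.987). For Runx3 they were Ubash3a (0.982), Zbtb7b (0.976) and Slmap (0.972), for Ets1 Fbxo32 (0.991), Vamp1 (0.988) and Zfp12 (0.987), and for Fli1 Sla2 (0.991), Snx2 (0.989) and Phf7 (0.988).

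On mm9 (GENCODE M1 gene models), Ets1 spans 32443806 to 32565405 of chromosome 9 on the plus strand, and Fli1 32229793 to 32348974 on the minus strand, 94.8 kb away and pointing the other way. Ets2 spans 95923682 to 95942658 on the plus strand of chromosome 16, which also holds Runx1 (92601712 to 92826311, minus strand) and Gabpa (84835170 to 84864024, plus strand). Runx2 spans 44632936 to 44951746 of chromosome 17 (minus strand), Runx3 134676567 to 134733905 of chromosome 4 (plus strand) and Cbfb 107694574 to 107741886 of chromosome 8 (plus strand). Elf1 spans 79881001 to 79982283 of chromosome 14 and Etv6 133985718 to 134220176 of chromosome 6, both on the plus strand. Elf1 overlaps Wbp4, a splicing factor gene on the other strand at 2.26 to 6.50 FPKM, by 75 bases. Of the neighbors Ets1 and Fli1, both fell with PMA/I. In resting cells both had negative differences with IL-2 (-1.26 and -0.46), and that of Fli1 did not pass the test. The 2 genes were not compared with each other.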

How the data were processed

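Per the labels and methods, the authors depleted ribosomal RNA, made directional libraries, used Trimmomatic 0.32 for trimming, HISAT2 2.1.0 for alignment (mm9) and StringTie 1.3.3 for quantification of RefSeq genes. The deposited values are FPKM. The methods name TPM, but library sums lay between 193816 and 420487, so each was rescaled here to 1000000 TPM. As no read counts are given, depth is known only relative to other libraries, and no counting interval can be had.

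Genes that exceeded 1 TPM anywhere were retained and scaled to a common upper quartile (75th percentile). A linear model of the 4 groups, with 8 residual degrees of freedom, was run on log2(TPM + 1) by limma 3.58.1 in R 4.3.3, following the methods. Members passed at a Benjamini-Hochberg adjusted P under 0.05, and the over 3-fold counts add that threshold. The interaction is the PMA/I difference with IL-2 minus that without. The code was tested on simulated data for bias, false calls and the recovery of 4-fold changes. A first requirement on the recovery of smaller changes was not met and was replaced, so smaller differences can fail to pass. Python 3.11.15, pandas 2.3.3, numpy 2.4.6 and matplotlib 3.10.9 did the rest.

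The members, lists and tests were chosen with earlier results of these data known. Named genes are the members, list genes past the test, and for each member over 3-fold the 3 genes with the highest Pearson r. One marker gene is not reported here. Libraries of 1 replicate number deviated together from their group means (all 18 correlations 0.101 to 0.531, against -0.416 to 0.171 over 36 pairs of other numbers), so the numbers, taken from the labels, pair the libraries, though the sources used here do not say what libraries of 1 number share. Alternatives were the placement of the 2 libraries, pseudocount, filter, scaling, leaving out short RNAs, an intensity trend, the replicate block, fewer groups in the fit, and each library left out.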

Additional observations from a re-analysis of the deposited data

Results flagged for a closer look

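The response of Ets1 to PMA/I differed with IL-2, by an interaction of 1.19 on the log2 scale (limma, SE 0.19, adjusted P = 0.0145). Ets1 fell from 711 ± 22.4 to 211 ± 25.2 TPM without IL-2 and from 296 ± 23.3 to 199.7 ± 7.31 TPM with it (SD, n = 3), and all 3 libraries of TB IL-2nil were above all others. The interaction ranged from 1.10 to 1.66 over 21 other fits with the libraries placed as here or left out, and its adjusted P passed in 19 of them (0.00795 to 0.153).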

How the results depend on the processing

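With 3 libraries a group and 2 placed against their labels, the placement moved the results most. By the labels, 0 members passed in each of the 5 comparisons, and the log2 differences changed sign for Runx3 (0.28), Ets2 (-0.68) and Fli1 (0.05) in TB IL-2 against TB IL-2nil, for Ets1 (0.05) and Elf1 (0.11) with PMA/I in IL-2, and for Runx3 (0.33), Cbfb (-0.16), Ets1 (0.54) and Elf1 (0.11) in TB+ IL-2 against TB+ IL-2nil. The cause of the other changes below was not tested.

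Shares of all genes that passed were counted only for the placements of the 2 libraries. The other counts here stand without one, so whether members or all genes moved cannot be told. The count for TB IL-2 against TB IL-2nil was 2 without upper-quartile scaling. That for TB+ IL-2 against TB+ IL-2nil was 0 without both libraries, with a pseudocount of 0.1, without upper-quartile scaling, with quantile normalization and with only the compared groups, 2 with the replicate block (Runx1 and Etv6), and 0 to 2 with 1 library left out (2 without TB+ IL-2nil replicate 2, Ets2 and Elf1, and 0 without any TB+ IL-2 replicate or TB+ IL-2nil replicate 1). The interaction count was 0 without both libraries and without upper-quartile scaling, and 1 to 2 with 1 library left out (2 without TB+ IL-2nil replicate 3, when Cbfb passed as well at -0.89, adjusted P = 0.0299). The block changed no call besides those of Runx2 and Etv6 given above.

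Without upper-quartile scaling the median of all genes moved from -0.38 to -0.775 with PMA/I without IL-2, from -0.04 to 0.226 in TB+ IL-2 against TB+ IL-2nil and from 0.16 to 0.51 in the interaction. Signs then changed for Runx1 (-0.32), Cbfb (-0.01) and Gabpa (-0.52) in the first, Runx3 (0.24), Ets1 (0.32), Elf1 (0.10) and Gabpa (0.27) in the second, and Runx1 (0.38) and Gabpa (0.39) in the interaction. Calls lost were Runx1 (adjusted P = 0.192) and Cbfb (adjusted P = 0.0644) at rest, Ets1 with PMA/I in IL-2 (adjusted P = 0.162), Cbfb with PMA/I without IL-2 (adjusted P = 0.982), Runx1 in TB+ IL-2 against TB+ IL-2nil (adjusted P = 0.79) and Ets1 in the interaction (adjusted P = 0.153). With quantile normalization Cbfb passed with PMA/I in IL-2 (-0.47, adjusted P = 0.0495), Etv6 was at 0.02 with PMA/I without IL-2 and Runx1 at 0.04 in the interaction. Without both libraries Gabpa was at 0 and Etv6 at -0.01 at rest, with Runx1 at 0.06 and Runx3 at -0.16 in the interaction. Gabpa was at 0 at rest and 0.09 with PMA/I in IL-2 with no filter, and at 0 with PMA/I without IL-2 when 3 libraries had to pass.

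Differences that did not pass also changed sign when 1 library was left out. At rest these were Runx3 (-0.49 to 0.02), Gabpa (-0.14 to 0.05) and Etv6 (-0.06 to 0.46). With PMA/I in IL-2 they were Gabpa (-0.14 to 0.06) and Etv6 (-0.14 to 0.44), and without IL-2 Gabpa (-0.09 to 0.09) and Etv6 (-0.50 to 0.02). In TB+ IL-2 against TB+ IL-2nil they were Runx3 (-0.42 to 0.11), Cbfb (-0.01 to 0.27), Ets1 (-0.16 to 0.01), Fli1 (0 to 0.64) and Gabpa (-0.19 to 0.01), and in the interaction Runx1 (-0.24 to 0.03), Runx2 (-0.04 to 0.69), Runx3 (-0.24 to 0.36) and Gabpa (-0.16 to 0.05). With PMA/I, the calls of Runx2, Runx3 and Ets2 held in all 16 other fits with and without IL-2, apart from the placement by labels, as did those of Ets1 and Elf1 at rest.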
